A study of Drosophila melanogaster with 2 samples.

Results

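Genes that encode neuropeptides and their receptors were examined for accessible chromatin in the mushroom body (MB), the memory centre of the fly brain whose intrinsic neurons are the Kenyon cells (KCs). The set held 53 genes, 24 that encode peptides and 29 that encode receptors, taken by symbol from the 13968 protein-coding genes on the main chromosomes, and all 53 were found. The proctolin receptor, ProcR, is annotated as Proc-R. Accessibility came from ATAC-seq, in which the Tn5 transposase cuts open DNA and tags it for sequencing, and the strength of each peak is the authors' fold enrichment over the local background of its own library. Both samples were naive flies of the genotype w*;UAS-Unc84::2xGFP/+;R14H06-Gal4/+, each a pool of 50 to 60 heads taken at the hour that matches 1 h after the onset of training, and the methods describe the flies as males. The R14H06-Gal4 driver places a GFP tag on the nuclear envelope of KCs, and per the study it also labels a few other cells weakly, so the pulled-down nuclei need not be KCs alone. With 1 group of 2 replicates there was no comparison between conditions, and SD here measures only the spread between 2 pools.

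Neuropeptides are cut from larger precursors, packed into dense-core vesicles and released to act over some distance, mostly through G protein-coupled receptors. A peptide gene is often used by a small and distinct set of neurons or endocrine cells, whereas a receptor can be used by many of the cells that the peptide reaches. In the MB, short neuropeptide F (sNPF) is a known transmitter of KCs, and the memory gene amnesiac (amn) is known from neurons that innervate the MB lobes.

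Each gene was given a transcription start site (TSS) peak, meaning the strongest peak by fold enrichment that came within 500 bp of one of its annotated TSS positions. Its percentile is the share of open protein-coding genes with a weaker TSS peak, out of 7997 open genes in replicate 1 and 7995 in replicate 2. A gene without a TSS peak was given a percentile of 0. Replicate 1 held 13868 peaks and replicate 2 held 14583. The summit pileup, the number of fragments or cut sites stacked at the highest point of a peak, had a median of 219 in replicate 1 and 216 in replicate 2, and the 95% intervals printed with fold enrichments are exact Poisson intervals of that pileup, which leave out every error but counting. All 10 KC marker genes were open in both replicates, at mean percentiles of 76.7 to 98.5, and so were 8 of 23 markers of other cells, open meaning that a TSS peak was called. Of all protein-coding genes 55.9% were open. The KC markers are long genes, with a median of 34.1 kb. Among all protein-coding genes over 30 kb, 89.0% were open, at a median percentile of 79.7. Among the other markers, those of insulin-producing cells (0 of 3), photoreceptors (0 of 3), muscle (0 of 2) and blood cells (0 of 2) had none open in both replicates. The open ones were dimm of peptidergic cells (66.7), ple (16.9) and DAT (36.5) of dopaminergic neurons, Tbh of octopaminergic neurons (83.0), SerT of serotonergic neurons (58.9), moody (40.6) and Eaat1 (28.9) of glia and apolpp of the fat body (76.0), whereas Tdc2, Trhn, repo, Lsp2 and Yp1 of the same cell types were not open. The part of such cells in the values below was not tested.

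Receptor genes were open far more often than peptide genes. A TSS peak in both replicates was found at 10 of 24 peptide genes (41.7%), at 26 of 29 receptor genes (89.7%) and so at 36 of the 53 members (67.9%), against 55.9% of all protein-coding genes. When any peak in the gene body was also counted, 12 peptide genes (50.0%), 27 receptor genes (93.1%) and 39 members (73.6%) had one in both replicates, against 59.3% of all protein-coding genes. The peptide genes lay below the share of all genes and the receptor genes above it, by both counts. With peaks near the TSS of another gene left out, 7 peptide genes (29.2%) and 23 receptor genes (79.3%) were open, against 23.1% of all protein-coding genes, so the peptide genes then lay above all genes. The 24 genes and 29 genes were chosen by name and each gene is a single case, so no p-value is attached to these shares.

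The strength of the TSS peaks differed in the same direction. The median percentile of peptide genes was 0 in both replicates, because 13 of the 24 had no TSS peak in replicate 1 and 14 had none in replicate 2. The median of receptor genes was 62.9 in replicate 1 and 68.5 in replicate 2, against 12.5 and 12.6 over all protein-coding genes. Peptide minus receptor genes gave −62.9 and −68.5, or −65.7 ± 3.94 (SD, n = 2). Since the peptide median was 0 by the rule for genes without a peak, this SD is that of the receptor median between 2 pools and says nothing of the spread over genes. Among the genes with a TSS peak alone, the median percentile was still 27.3 and 31.4 for peptide genes and 66.2 and 71.6 for receptor genes. Over all open protein-coding genes it was 50.0 in both replicates, so the receptor genes stood less far above these than above all genes. A mean percentile of at least 75 was reached by 3 peptide genes (12.5%), 10 receptor genes (34.5%) and hence 13 members (24.5%), against 14.0% of all protein-coding genes.

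**Figure D1:**
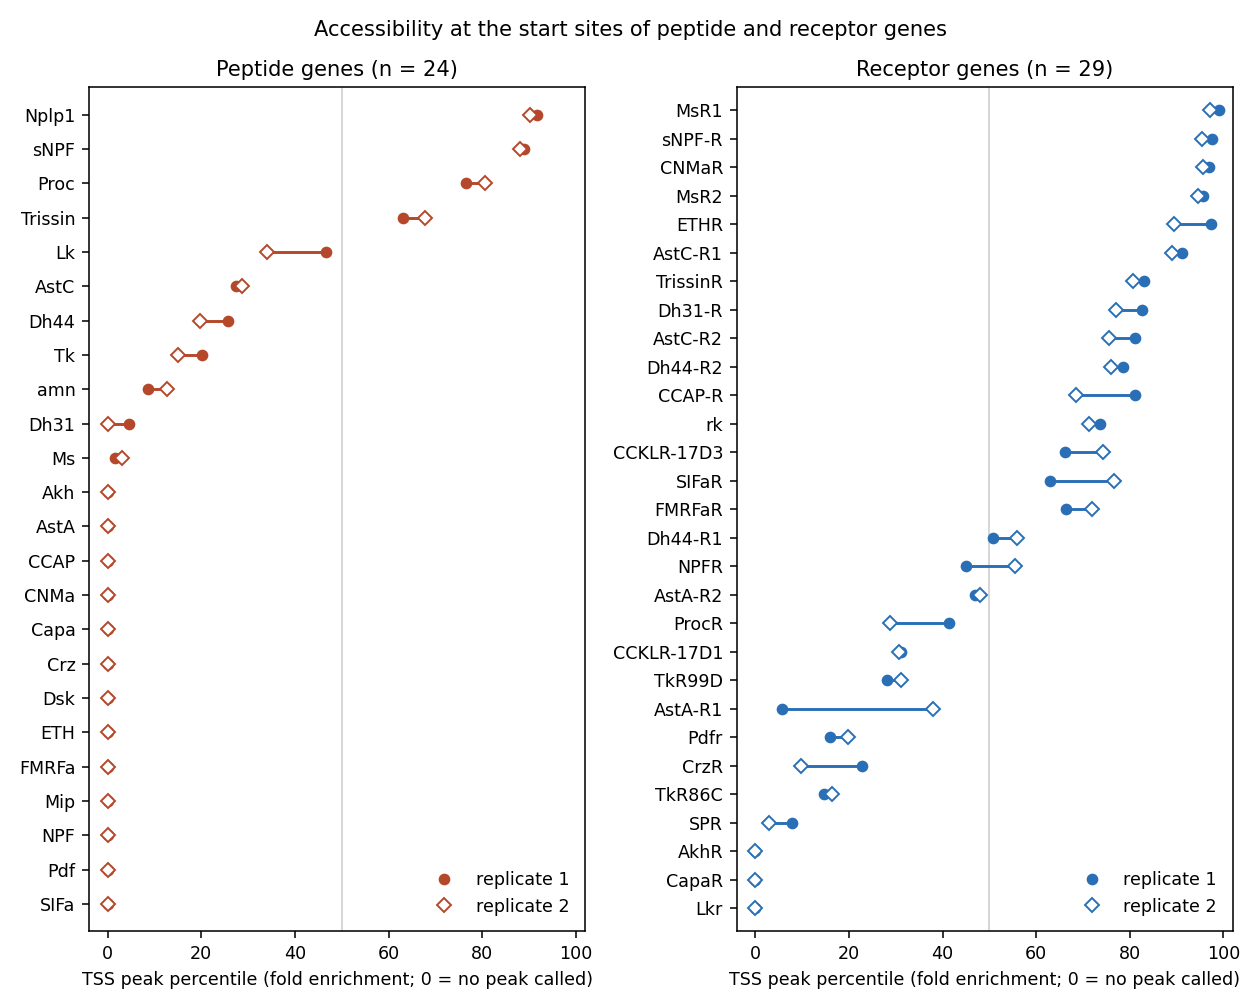
TSS peak percentile of each peptide gene (left) and each receptor gene (right), with a filled circle for replicate 1, an open diamond for replicate 2 and 0 where no peak was called. Of the 24 peptide genes 13 sit at 0 in both replicates and 4 lie above 50 in both, whereas 3 of the 29 receptor genes sit at 0.

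The peptide genes fell into a few strongly open ones and a long list of closed ones. Nplp1, which encodes neuropeptide-like precursor 1, had the highest values, namely fold enrichments of 4.40 (replicate 1) and 4.12 (replicate 2) and percentiles of 91.7 and 90.2. sNPF followed with 4.16 (95% interval 3.79 to 4.55) and 3.97 (3.62 to 4.33), at percentiles of 89.0 and 88.1, so its 95% intervals overlapped. Its peak was 1243 bp wide in replicate 1 and 1260 bp in replicate 2, and its summits lay 125 and 248 bp upstream of the single TSS at position 20027915 on 2L. Proc, the precursor of the muscle-stimulating peptide proctolin, had fold enrichments of 3.60 and 3.59, and the non-coding gene lncRNA:CR45364 and a glycine tRNA gene have their TSS in or beside the same peak. Trissin, which encodes a cysteine-rich peptide, had 3.19 and 3.16, but with summits 833 and 616 bp upstream, beside the TSS of the neighbouring gene obe. These 4 genes were the peptide genes with percentiles above 50 in both replicates, and the peaks of Proc and Trissin could not be told apart from those of their neighbours.

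The other open peptide genes were weaker. Lk, the precursor of the diuretic peptide leucokinin, had fold enrichments of 2.71 and 2.25 (percentiles 46.7 and 34.0), with a summit 916 and 876 bp downstream, past the end of this 0.626 kb gene and beside the TSS of CG34039 on the other strand. AstC, a somatostatin-like allatostatin, reached percentiles of 27.3 and 28.7, in a peak that stopped 98 and 156 bp short of its TSS. Dh44, related to corticotropin-releasing factor, had fold enrichments of 2.16 and 1.86, and the tachykinin gene Tk had 1.99 and 1.75. For both, the replicate intervals overlapped (Dh44, 1.86 to 2.49 and 1.59 to 2.16; Tk, 1.71 to 2.31 and 1.49 to 2.03). The memory gene amn had 1.62 and 1.69, near the bottom of the open genes at percentiles of 8.65 and 12.7. The myosuppressin gene Ms had 1.39 and 1.42, in narrow peaks of 88 and 56 bp that did not overlap between replicates. Dh31, a peptide of clock and other neurons that acts on sleep, had a TSS peak of 1.49 in replicate 1 and none in replicate 2.

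No peak lay at the TSS of 13 peptide genes in either replicate. Crz, which encodes corazonin, had only a peak that began 703 bp from its TSS in replicate 1 and 748 bp in replicate 2, outside the 500 bp window and beside the TSS of Set8. The other 12 had no peak in the gene or near the TSS, and the nearest peak of either replicate lay 1089 to 5546 bp from their TSS, with a median of 2346.5 bp. They were NPF, the fly relative of neuropeptide Y, Pdf of the clock neurons, the brain peptides AstA, Mip, Dsk, SIFa, FMRFa and CNMa, the ecdysis peptides CCAP and ETH, and the hormone precursors Akh and Capa. AKH is made by the corpora cardiaca and ETH by the Inka cells, both outside the brain. Absence from a peak list means only that no region passed the authors' q-value of 0.01 at this depth.

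Sequence around the TSS set the classes apart in a feature that the choice of genes did not use. In the window of 250 bases upstream to 50 downstream of each TSS, on both strands, the TATA box letters TATAAA occurred in 20 of 24 peptide genes (83.3%) and 9 of 29 receptor genes (31.0%), against 51.3% of all protein-coding genes. On the gene's own strand and starting 40 to 20 bases upstream, where a TATA box usually lies, they occurred in 12 peptide genes (50.0%) and 2 receptor genes (6.90%, TkR86C and FMRFaR), against 9.39% of all protein-coding genes. This narrower window was added after the first counts were seen. Of the 10 peptide genes open in both replicates 5 had the box there, and of the other 14 peptide genes 7 did, the same share. Core promoters of 8 peptide genes with the box are printed as 61 bases from 45 upstream to 15 downstream, with the TSS as base 46 and the TATAAA letters in capitals, first 4 genes open in both replicates and then 4 that were not. They were read on the gene's strand from the RefSeq copy of the Release 6 assembly, the one that dm6 names, at chr2L:20027870-20027930 (sNPF, plus strand), chr2L:7871326-7871386 (Proc, minus), chr2L:11081384-11081444 (AstC, minus), chr3R:12005458-12005518 (Tk, minus), chr2L:8506830-8506890 (Dh31, minus), chr3R:14314809-14314869 (Crz, plus), chr3R:4190245-4190305 (Dsk, minus) and chr3R:29914331-29914391 (Capa, minus).
sNPF: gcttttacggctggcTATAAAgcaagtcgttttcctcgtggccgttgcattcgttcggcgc
Proc: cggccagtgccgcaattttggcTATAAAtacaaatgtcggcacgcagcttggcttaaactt
AstC: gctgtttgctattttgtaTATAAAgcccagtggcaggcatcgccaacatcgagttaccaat
Tk: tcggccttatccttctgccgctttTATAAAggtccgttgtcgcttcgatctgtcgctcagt
Dh31: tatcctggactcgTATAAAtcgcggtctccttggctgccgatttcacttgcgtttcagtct
Crz: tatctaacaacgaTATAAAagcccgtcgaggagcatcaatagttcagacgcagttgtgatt
Dsk: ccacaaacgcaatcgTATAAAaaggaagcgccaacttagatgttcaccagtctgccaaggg
Capa: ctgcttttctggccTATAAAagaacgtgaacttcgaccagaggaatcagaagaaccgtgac
The box began 30 bases upstream of the TSS in sNPF, 23 in Proc, 27 in AstC and 21 in Tk, and 32 in Dh31 and Crz, 30 in Dsk and 31 in Capa. The Proc sequence belongs to the inner of its 2 annotated TSS positions. A match to these letters is a description and not a measured binding site.

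Among the receptor genes, those of myosuppressin, sNPF and CNMamide led. MsR1, a myosuppressin receptor, had a fold enrichment of 5.95 (95% interval 5.44 to 6.49) in replicate 1 and 4.94 (4.49 to 5.43) in replicate 2. It ranked 67th and 224th of the open genes. sNPF-R, the receptor of short neuropeptide F, had 5.22 and 4.64, at percentiles of 97.7 and 95.5, and CNMaR, the receptor of CNMamide, had 5.04 and 4.66, at 97.0 and 95.6. Their promoters are shown because they were the strongest receptor peaks for which sequence is given, as 181 bases from 150 upstream to 30 downstream, with the TSS as base 151, at chr3L:2322543-2322723 (MsR1, plus strand), chr3L:20088977-20089157 (sNPF-R, minus) and chr3L:9643959-9644139 (CNMaR, plus). Capitals mark the initiator letters TCAGTT.
MsR1: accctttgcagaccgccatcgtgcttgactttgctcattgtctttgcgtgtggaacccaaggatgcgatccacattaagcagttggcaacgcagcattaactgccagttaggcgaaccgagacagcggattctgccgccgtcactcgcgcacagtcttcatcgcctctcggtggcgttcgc
sNPF-R: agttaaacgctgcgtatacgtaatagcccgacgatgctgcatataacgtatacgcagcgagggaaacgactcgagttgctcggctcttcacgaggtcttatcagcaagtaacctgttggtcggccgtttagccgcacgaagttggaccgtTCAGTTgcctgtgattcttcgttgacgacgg
CNMaR: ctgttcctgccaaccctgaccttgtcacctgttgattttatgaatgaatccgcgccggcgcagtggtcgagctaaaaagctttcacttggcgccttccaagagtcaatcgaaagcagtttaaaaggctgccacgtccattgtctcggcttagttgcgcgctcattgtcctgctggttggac
The initiator letters began at the TSS of sNPF-R. Over the wider window of 250 bases upstream to 50 downstream, on both strands, they occurred in 6 peptide genes (25.0%) and 12 receptor genes (41.4%), against 32.5% of all protein-coding genes, and the letters TATCGATA of the DNA replication-related element occurred in no member, against 10.2% of all protein-coding genes. The GAGAGAG repeat occurred in no peptide gene and 2 receptor genes (Dh44-R2 and ProcR), against 9.08%, and the cAMP response element TGACGTCA in 1 peptide gene (Nplp1) and no receptor gene, against 0.723%. The median GC content of this window was 50.2% in peptide genes and 48.0% in receptor genes, against 39.2% in all protein-coding genes.

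The next 9 receptor genes also had strong TSS peaks. MsR2, the second myosuppressin receptor gene, had fold enrichments of 4.80 and 4.54, and ETHR, the receptor of ecdysis triggering hormone, had 5.15 and 4.06. The ETHR intervals of 4.68 to 5.66 in replicate 1 and 3.66 to 4.50 in replicate 2 did not overlap, and its percentiles were 97.4 and 89.4. The somatostatin receptor relatives AstC-R1 (4.34 and 4.04) and AstC-R2 (3.78 and 3.40) were both open. TrissinR, the receptor of trissin, had 3.86 and 3.59, and Dh31-R, related to the mammalian calcitonin receptor, had 3.83 and 3.45 in a peak of 2634 and 2875 bp that the TSS of CG4734 shares. Dh44-R2, one of the receptors for Dh44, had 3.69 and 3.41. CCAP-R, which binds the cardioactive peptide CCAP, had 3.78 and 3.18, and rk, the receptor of the cuticle-hardening hormone bursicon, had 3.50 and 3.27. Each of these 12 receptor genes had a percentile above 68 in both replicates.

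The remaining 17 receptor genes lay between 0 and 70.2. CCKLR-17D3, SIFaR and FMRFaR had mean percentiles of 70.2, 69.8 and 69.2, but the SIFaR peak was 4162 bp wide in replicate 1 with its summit 3289 bp upstream, and it also held the TSS of lncRNA:Hsromega. Dh44-R1 (53.3), NPFR (50.2) and AstA-R2 (47.4) lay near the middle, and ProcR (35.1), CCKLR-17D1 (30.9) and TkR99D (29.7) below it. The lowest open receptor genes were AstA-R1 (21.8), the Pdf receptor Pdfr (17.8), the corazonin receptor CrzR (16.3), the tachykinin receptor TkR86C (15.6) and SPR (5.36), the sex peptide receptor that also binds Mip. AstA-R1 had a narrow peak at or just before its TSS in both replicates, with fold enrichments of 1.53 and 1.61, but in replicate 2 a stronger peak 498 bp from the TSS, beside that of CG2875, was taken in its place, which gave percentiles of 5.66 and 37.9. No TSS peak was called at AkhR, which acts in the fat body, CapaR, which acts in the Malpighian tubule, or Lkr, and of these only Lkr had a region elsewhere in the gene.

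The replicates gave much the same order. The percentiles of the 36 open members differed by a median of 3.99 points, 21 being higher in replicate 1 and 15 in replicate 2. Only NPFR, AstA-R1, Lk, CCAP-R, CrzR, SIFaR and ProcR, 7 genes in all, differed by over 10 points. Close neighbours in the order could not be ranked, for example sNPF-R at 96.6 ± 1.51 and CNMaR at 96.3 ± 0.938 (SD, n = 2 each), which differed by less than their spread.

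In most known peptide and receptor pairs the receptor had the higher percentile, often where the peptide gene was not open in both replicates. Of 28 pairs, 11 had a TSS peak at both genes, 14 at the receptor only, 1 at the peptide only (Lk and Lkr) and 2 at neither (Akh and AkhR, Capa and CapaR). The pairs of Ms with MsR1 and with MsR2, counted as open at both genes, rest on Ms peaks that did not overlap between replicates. When the peak had to cover the TSS, 1 pair had it at both genes and 17 at the receptor only. The percentile was higher at the receptor in 23 pairs, higher at the peptide in 3 (Tk and TkR86C, Lk and Lkr, Proc and ProcR) and tied at 0 in 2. Over the classes, 41.7% of peptide genes and 89.7% of receptor genes were open in both replicates. Whether pairing adds anything to these class shares was not tested. CNMa had no peak while CNMaR stood at 96.3, and ETH had none while ETHR stood at 93.4. sNPF and sNPF-R at 88.5 and 96.6 and Trissin and TrissinR at 65.5 and 81.9 were the pairs with both genes above 50. Several pairs share a gene, since a peptide can have more than 1 receptor gene, so the 28 pairs are not independent.

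**Figure D2:**
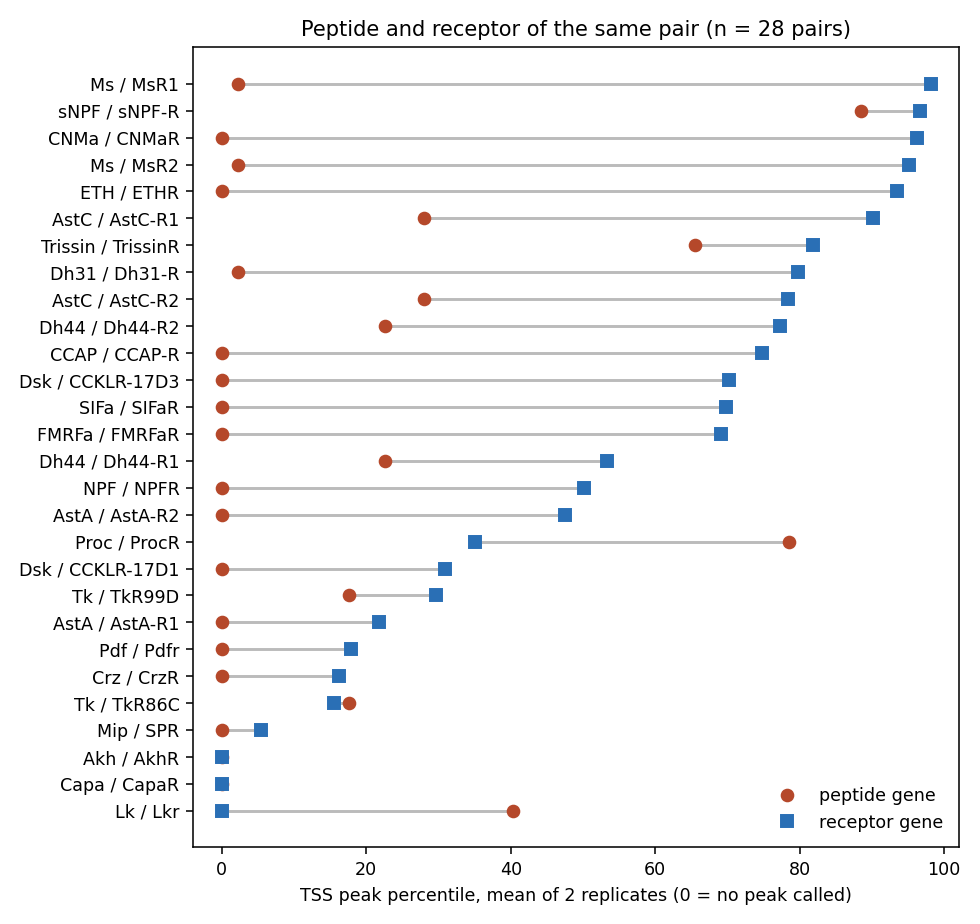
Mean TSS peak percentile of 2 replicates for the peptide gene (circle) and the receptor gene (square) of each of 28 pairs, joined by a line, with 0 where no peak was called. The receptor lies to the right in 23 pairs, and the longest lines belong to Ms with MsR1 and CNMa with CNMaR.

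Peptide genes were short and receptor genes long, so the shares were also taken among genes of like length and like number of start sites. The median gene length was 3.11 kb for peptide genes and 17.4 kb for receptor genes, against 2.16 kb for all protein-coding genes. Among genes with 1 TSS position, 6 of 17 peptide genes (35.3%) and 19 of 22 receptor genes (86.4%) were open in both replicates, against 48.4% of all protein-coding genes. Among genes of 3 to 30 kb, 7 of 12 peptide genes (58.3%) and 21 of 24 receptor genes (87.5%) had one, against 74.8%. The median percentile among genes of 3 to 30 kb was 14.1 for peptide genes and 61.3 for receptor genes, against 46.2 for all protein-coding genes, and among genes with 1 TSS position it was 0 and 70.0, against 1.38. Receptor genes lay below all protein-coding genes in strength among those over 30 kb (74.8 against 79.7, 5 receptor genes) and among those with 2 to 3 TSS positions (35.1 against 42.9, 7 receptor genes). The 12 peptide genes under 3 kb (3 open, 25.0%, against 43.1% of all protein-coding genes) have no receptor gene to be set beside, and the 5 receptor genes over 30 kb (5 open, against 89.0%) have no peptide gene.

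**Figure D3:**
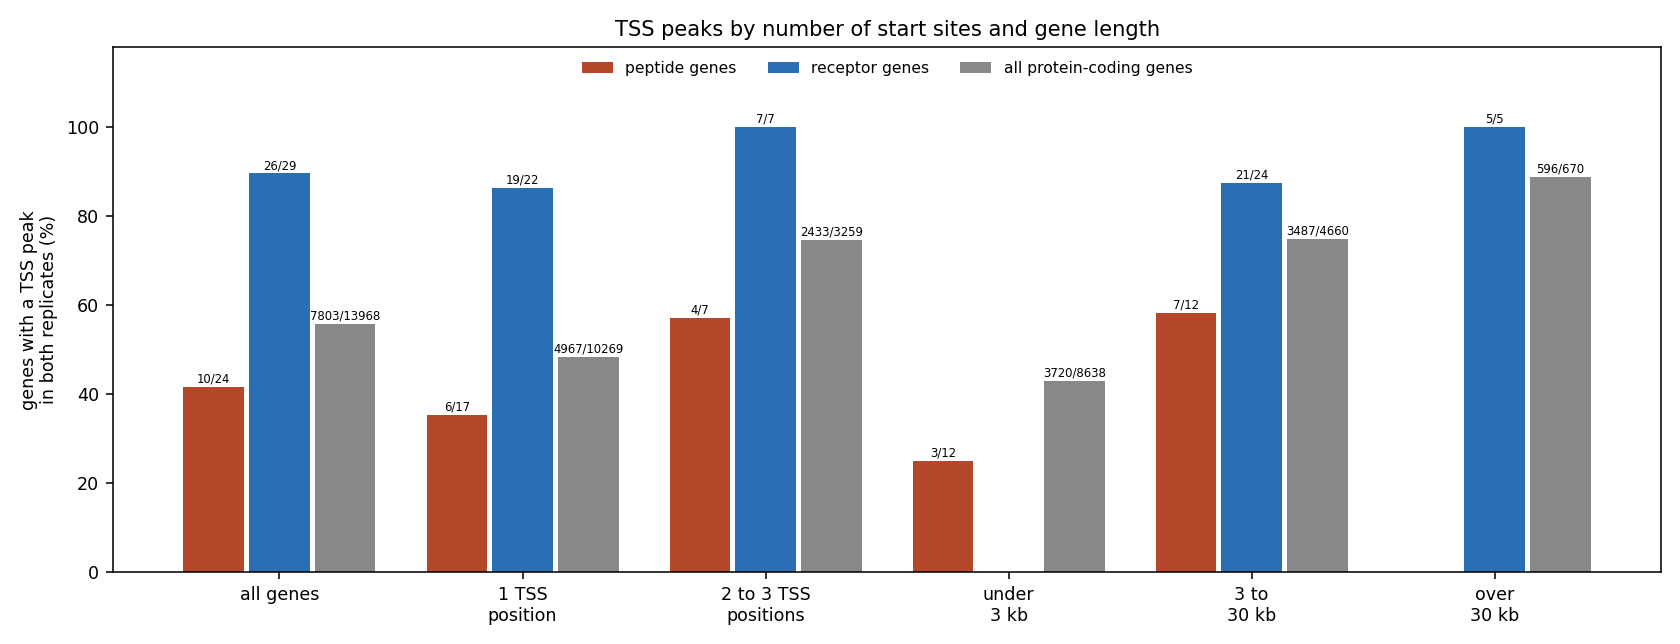
Percent of genes open at a TSS in both replicates, for peptide genes, receptor genes and all protein-coding genes, over all genes, by number of TSS positions and by gene length, with the open genes and all genes of each bar above it. Receptor genes exceed peptide genes in each bin that holds both, and peptide genes lie below all protein-coding genes in each bin that holds any.

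Peak position was also counted in each class, although only 10 peptide genes were open. The summit was within 300 bp of a TSS in both replicates at 5 of 10 open peptide genes (sNPF, Tk, Dh44, Proc and Nplp1) and at 19 of 26 open receptor genes, against 67.1% of all open protein-coding genes. The receptor share (73.1%) was thus near that of all open genes, and the peptide share rests on few genes. The peak covered a TSS in both replicates at 5 of 10 and 19 of 26 genes (50.0% and 73.1%), against 86.2%. The TSS of another gene lay within 500 bp of the peak at 3 peptide genes (Lk, Proc and Trissin) and 4 receptor genes (AstA-R1, Dh31-R, CCKLR-17D1 and SIFaR), or 3 of 10 and 4 of 26 (15.4%), against 61.3% of all open protein-coding genes. When any peak that covers a TSS was counted, there were 5 peptide genes and 19 receptor genes (20.8% and 65.5%), against 49.1% of all protein-coding genes. When the summit itself had to lie within 500 bp, they were 6 and 21 genes (25.0% and 72.4%), against 47.1%.

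The background around a summit bore on the receptor values. The peak caller sets a lowest background for the library, 82.9 in replicate 1 and 88.6 in replicate 2, and raises it where the surroundings hold many fragments. The TSS peak lay at this lowest background in 3 of 11 peptide genes, 19 of 26 receptor genes (73.1%) and 14.8% of all open protein-coding genes in replicate 1, and in 1 of 10, 19 of 26 (73.1%) and 15.1% in replicate 2. Ranked by the summit pileup alone, which takes no account of the background, the receptor median was 33.3 in place of 65.7, against 12.5 over all protein-coding genes. That 12.5 counts genes without a TSS peak as 0, whereas the middle of the open genes is 50 by definition. By pileup the receptor median thus lay below the middle of the open genes, and by −log10 q (50.9) near it.

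Beyond the TSS, the members held 58 consensus regions, merged peaks with a peak from each replicate. Of these, 16 belonged to peptide genes and 42 to receptor genes, or 0.667 and 1.45 per gene, against 0.996 per protein-coding gene. Per 10 kb of gene the numbers were 1.31 for peptide genes and 0.699 for receptor genes, against 1.43, so the order turned by this measure. Regions within 500 bp of a TSS count even outside the gene, which raises this measure in short genes. Among genes of 3 to 30 kb the order did not turn. There, peptide genes had 1.08 regions per gene and receptor genes 1.42, against 1.26 over all protein-coding genes. Receptor genes over 30 kb had 1.6, against 5.43 over all genes of that length. With 2 to 3 TSS positions receptor genes had 1.14 against 1.51, and with 1 TSS position 1.55 against 0.720. Receptor genes thus lay below all genes in some bins and above them in others. A TSS lay within 500 bp of 36 regions, 18 were intronic, 2 overlapped exons away from the TSS and 2 sat on the edge of the gene with the summit outside it. The 18 intronic regions were found in 13 genes, with fold enrichments of 1.49 to 3.81 as the mean of both replicates.

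The strongest regions away from a start site were a mixed group. The region at the edge of Crz (fold enrichment 4.85 in replicate 1, 4.21 in replicate 2) lay within 500 bp of the TSS of Set8. The exonic region in amn (4.41 and 4.57) lay as close to a TSS of Hers, and the region past the end of Lkr (3.26 and 2.64) to that of CG34342. The 2 others had no TSS of another gene within 500 bp. In SIFaR an intronic region had 3.82 and 3.80, with a summit 4663 bp inside the gene. In sNPF, an intronic region at chr2L:20040026-20041070 in dm6, 1045 bp long and 12111 bp from the TSS, had 3.61 (95% interval 3.22 to 4.04) and 3.07 (2.72 to 3.45). It was 1 of 3 intronic regions of sNPF, which with its TSS peak had 4 regions, the most of any member. The other intronic regions of sNPF were weak, with 1.58 and 1.55 in the region nearer the TSS and 1.56 and 1.69 in the farther one. A single intronic region in Dh31 (1.61 and 1.56) was the only region that gene had in both replicates.

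**Figure D4:**
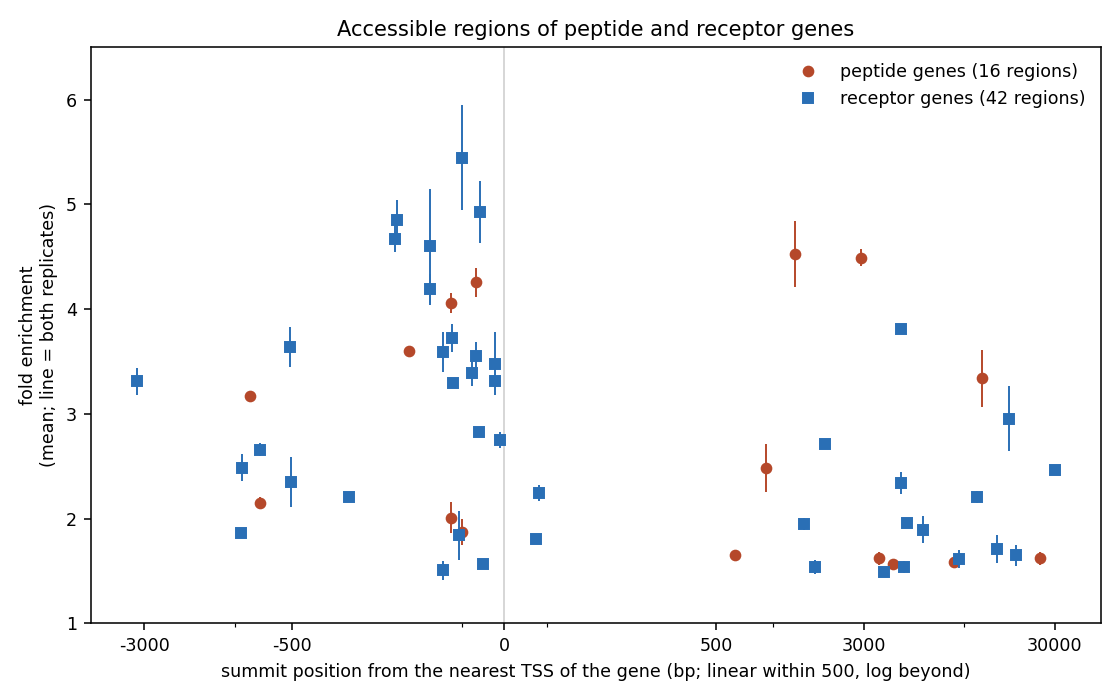
Fold enrichment of the 58 consensus regions against the distance of the summit from the nearest TSS of the gene in bp (linear within 500 bp of the TSS and logarithmic beyond, negative upstream), with a point at the mean and a line joining both replicates. The highest receptor points lie just upstream of the TSS, and the 2 peptide points above 4 on the right are the regions of Crz and amn beside Set8 and Hers.

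Genes that process, degrade or release peptides were open in most cases. Of 18 genes of peptide processing, peptide degradation and dense-core vesicles, 16 had a TSS peak in both replicates (88.9%). The share was 55.9% of all protein-coding genes and 74.8% of those of 3 to 30 kb, the bin that holds the median length of this list. The median percentile was 60.9 ± 3.52 (SD, n = 2), against 12.6 over all protein-coding genes and 46.2 over those of 3 to 30 kb. Only 5 of the 18 genes had 1 TSS position, and the median was 2. Of all protein-coding genes with 2 to 3 TSS positions, 74.7% were open. The open genes of the list included amon, the prohormone convertase (75.6), Phm, an amidating enzyme (70.0), dimm, the transcription factor of peptidergic cells (66.7), Syt4, a synaptotagmin (83.9), and Nep3, a neprilysin-like peptidase (95.9). Nep4, with a TSS peak in replicate 2 only, and Nep5, with none, were the exceptions. Nep2 (18.9) and the synaptotagmin gene Sytbeta (29.9) were the weakest of the open ones.

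Outside the set, receptor genes were again open more often than peptide genes, without a steady difference in strength. Of 24 other peptide or protein hormone genes, 6 were open in both replicates (25.0%), and of 13 other receptor genes 9 were (69.2%), against the 55.9% of all protein-coding genes. The median gene length of these lists was 0.8565 kb and 11.4 kb. Of all protein-coding genes, 43.1% of those under 3 kb and 74.8% of those of 3 to 30 kb were open. Each list thus lay below the bin that holds its median length. Among the open genes of these lists the median percentile was 9.62 in replicate 1 and 29.5 in replicate 2 for peptide genes and 25.7 and 28.8 for receptor genes, so the order turned between replicates. The median over all 13 other receptor genes was 18.3, and 15.4% of them reached a percentile of 75, against 14.0% of all protein-coding genes. All 8 insulin-like peptide genes (Ilp1 to Ilp8) lacked a TSS peak, and the glycoprotein hormone subunit gene Gpb5 was the most open peptide gene of that list (73.5). Among the other receptors CCHa2-R (93.9) and the insulin receptor InR (78.7) were the most open, and RYa-R, PK1-R, Lgr3 and tor had no TSS peak.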

How the data were processed

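The deposited data were 1 peak list for each of 2 naive samples. Per the study's methods and the submitters' processing notes, the authors trimmed reads (Trimmomatic 0.39), aligned them to dm6 (Bowtie2 2.4.1), shifted them for Tn5, removed duplicates and called peaks in each replicate with MACS2 2.1.2 (q-value 0.01, minimum length 50 bp, maximum gap 100 bp). The authors' fold enrichment is a ratio of summit pileup to background, each with 1 added. The p-value and q-value were deposited as −log10, and the deposited integer score was not used. No control library was named, so open DNA around a summit can raise its background and lower its fold enrichment.

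Pileups were solved from fold enrichment and p-value, and lay within 0.0183 (replicate 1) and 0.0221 (replicate 2) of whole numbers, where tests on simulated data recovered 2000 of 2000. The lists hold no read totals. The study's methods state them after filtering, and they were not used here, since each peak's pileup gives the precision of its value.

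TSS positions came from Ensembl release 115, and all 53 genes had the same start and end in RefSeq. Peaks of both replicates that overlapped by 1 bp or more were joined into regions. The members and lists were chosen with earlier results of these data known, so counts and medians are given without a test over genes. Named genes were the 8 peptide and 12 receptor genes with the highest mean percentile, each member without a TSS peak in both replicates and the 5 strongest regions away from a TSS. The core promoters with a TATA box were chosen after values were seen. Gpa2 of the other peptide genes was not analysed here. Alternatives covered the TSS window, the TSS chosen, a −log10 q of at least 5, the strength measure, shared TSS peaks, the overlap rule and each replicate alone. Analyses used Python 3.11.15, pandas 2.3.3, numpy 2.4.6 and scipy 1.17.1.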

Additional observations from a re-analysis of the deposited data

How the results depend on the processing

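Of 81 recomputed values, 58 stayed within the replicate spread or 1.5 times the main count, and 23 moved. None changed sign, but counts, medians and regions per gene cannot be negative. Where the peptide median was 0 by rule, peptide minus receptor could not turn positive either, so the sign says little here. A peak that covers the TSS left 5 peptide genes and 1 pair open at both genes, and a summit within 500 bp left 6 peptide genes. When the TSS peaks of both replicates had to overlap, 9 peptide genes, 25 receptor genes and 34 members were open. The peptide median was 0.340 with a window of 1000 bp and 29.3 over open genes alone. The receptor median was 56.7 without peaks near another gene's TSS, 50.9 by −log10 q, 33.3 by summit pileup and 52.9 with the summit within 500 bp, and peptide minus receptor was −56.7, −50.9, −33.3 and −52.9 in the same order, and −39.6 over open genes. The middle of all open protein-coding genes is 50 under each of these rankings. Pileup, summit distance and the overlap of TSS peaks were chosen after the data were seen. Regions per peptide gene were 0.583 at a reciprocal overlap of 50% and 0.458 without regions near another gene's TSS. Regions per receptor gene were 1.28 under both, and 1.21 at a −log10 q of at least 5. With either replicate alone they were 0.75 to 0.833 per peptide gene and 1.66 to 1.72 per receptor gene, open members were 36 to 37, open peptide genes 10 to 11, open receptor genes 26, and the receptor median 62.9 to 68.5. No paired analysis was possible because there was 1 group. With 2 replicates and 1 group, no permutation test could be made, and weak peaks near the authors' q-value threshold, such as those of Ms, Dh31 and SPR, are the least certain.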

Other observations

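The receptor genes on the X chromosome were open but weak. All 6 (Pdfr, AstA-R1, SPR, CCKLR-17D1, CCKLR-17D3 and ProcR) had a TSS peak in both replicates, against 54.2% of all protein-coding genes on the X chromosome. Their median percentile was 26.4, with a range of 5.36 to 70.2. Of the 23 autosomal receptor genes 20 were open, against 56.3% of all protein-coding genes on the autosomes. The median was 72.5 over all 23 and 76.1 over the open ones. Among all open protein-coding genes the median was 47.0 on the X chromosome and 52.0 on the autosomes. The split by chromosome was made after the values were seen, the methods describe the flies as males, which carry 1 X chromosome, and the part of X copy number in the receptor values was not tested.

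Receptor families did not separate. The 4 receptors of the secretin-like family (Pdfr, Dh31-R, Dh44-R1 and Dh44-R2) had a median percentile of 65.3, and the 24 rhodopsin-like receptors other than rk had 59.7, with ranges of 17.8 to 79.8 and 0 to 98.2. The leucine-rich repeat receptor rk was kept apart from both and stood at 72.5.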
